A study of Gallus gallus with 10 samples.

Results

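FXYD2, PLTP, FOLR1 and SLC6A13 are 4 of the 11324 genes counted in RNA of the chick preoptic anterior hypothalamus (PO/AH), and their levels were followed library by library. They were selected on the same libraries used here. All 4 come from the genes that the study listed as lower after a miR-200a mimic, and they were put together as genes known from the choroid plexus and the meninges. Their difference between the groups is therefore a description, and that FXYD2 and PLTP passed the call described further on restates the choice. The spread within groups entered the choice as well, through the test that made the list of lower genes, so how the genes varied among libraries is also given as a description.

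The hypothalamus borders fluid and membranes. The choroid plexus is an epithelium in the ventricles that makes cerebrospinal fluid, the meninges are the connective tissue that wraps the brain, and both lie close to a block of tissue dissected at the third ventricle. In mammals, FOLR1 is a folate receptor through which the choroid plexus passes folate to the fluid, and SLC6A13 is a carrier of GABA and taurine best known from the meninges. PLTP is a secreted protein that moves phospholipids between lipoproteins, and FXYD2 is a small regulatory subunit of the sodium pump known best from the kidney. A piece of border tissue carried along in a dissection would bring all genes of that tissue into the same library.

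The study compared 5 libraries of naïve Cobb broiler chicks with 5 libraries of chicks taken 6 h after an injection of the hsa-miR-200a-3p mimic, at 3 days of age. The mimic is a made RNA that stands in for the mature microRNA. The naïve chicks received no injection and no library of chicks given a control mimic was analysed here, so the injection and the mimic cannot be told apart. The labels and the study's methods name the PO/AH as the place of injection and its results name the third ventricle, and whether each library is 1 chick is not stated. Whole tissue was lysed. The number of a library is that of its deposited column, namely 2, 3, 4, 6 and 7 in the naïve group and 2, 4, 6, 9 and 10 in the mimic group.

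Counts are of unique molecular identifiers (UMIs), which mark single molecules at the 3′ end of a transcript. They summed to between 2104121 and 5503185 per library, and naïve library 7 was the shallowest. Levels are CPM, the count of a gene relative to the total of its library, with totals scaled by TMM (trimmed mean of M values, which equalizes the bulk of genes between libraries). A single count was worth 0.175 CPM in naïve library 3 and 0.505 CPM in naïve library 7. Of the 11324 genes, 8585 passed the filter on low counts. A gene was called when edgeR gave an adjusted p of 0.05 or less and a fold change of 1.5 or more, with a highest count of 30 or more. Over these genes, 2 (0.0233%) were called lower and 12 (0.14%) higher after the mimic, and the 2 lower genes were FXYD2 and PLTP. With naïve libraries 3 and 6 left out, an alternative chosen after seeing the data, 0 were called lower, while the log2 fold changes were −2.71 for FXYD2 and −1.42 for PLTP against −2.62 and −1.32 with all libraries. Since this contrast chose the members, nothing is read from that count. FOLR1 and SLC6A13 did not pass the filter.

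FXYD2 (ENSGALG00000007320) was present in each naïve library and close to absent after the mimic. The naïve libraries 2, 3, 4, 6 and 7 held 52, 45, 30, 48 and 26 counts, which is 9.37, 7.86, 7.98, 9.21 and 13.1 CPM. The mimic libraries 2, 4, 6, 9 and 10 held 3, 9, 1, 10 and 7 counts, which is 0.837, 2.34, 0.226, 2.30 and 1.81 CPM. The groups did not overlap, and the lowest naïve library was 3.36 times the highest mimic library. The naïve mean was 9.51 ± 2.14 CPM (SD, n = 5) and the mimic mean was 1.5 ± 0.937 CPM (SD, n = 5), a log2 fold change of −2.62 (standard error 0.38). It had the most negative log2 fold change of the 8585 genes that passed the filter, which restates its choice on this contrast. FOLR1 and SLC6A13, which did not pass, had −5.78 and −5.03 in a fit without the filter.

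Naïve library 7 was the highest at 13.1 CPM, with an exact 95% Poisson interval of 8.58 to 19.3 CPM that overlaps the interval of each other naïve library. The coefficient of variation over the naïve libraries was 22.5%, where counting error alone gives 16.6%. These intervals cover counting error only. After the mimic the counts were few, and the order of the libraries was not tested. The interval of mimic library 6, 0.00572 to 1.26 CPM, overlaps that of mimic library 4, 1.07 to 4.45 CPM. Such an overlap is no test of whether the levels differ.

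PLTP (ENSGALG00000036686) was the more abundant in counts, and its fold change between the groups was smaller than that of FXYD2. The naïve libraries 2, 3, 4, 6 and 7 held 144, 194, 134, 142 and 97 counts, or 25.9, 33.9, 35.6, 27.2 and 49.0 CPM. The mimic libraries 2, 4, 6, 9 and 10 held 54, 63, 50, 52 and 51 counts, or 15.1, 16.4, 11.3, 12.0 and 13.2 CPM. Again the groups did not overlap, with the lowest naïve library at 1.58 times the highest mimic library. The naïve mean was 34.3 ± 9.19 CPM (SD, n = 5) and the mimic mean was 13.6 ± 2.13 CPM (SD, n = 5), a log2 fold change of −1.32 (standard error 0.19). All 5 mimic libraries lay below all naïve libraries in 43 of the 8585 genes, which is 0.501%.

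The coefficient of variation of PLTP over the naïve libraries was 26.8%, where counting alone gives 8.76%. That of FXYD2, 22.5%, was also above its counting error of 16.6%, and whether the genes differ in this was not tested. Naïve library 7 held 49.0 CPM with an interval of 39.7 to 59.8 CPM, above the intervals of naïve libraries 2 (21.9 to 30.5 CPM), 3 (29.3 to 39.0 CPM) and 6 (22.9 to 32.1 CPM) and overlapping that of naïve library 4 (29.9 to 42.2 CPM). In the chicken RefSeq annotation (GRCg7b) a gene without a name, LOC124417340, overlaps PLTP. The files use galGal5 and state no strand rule, so whether the count of PLTP holds reads of that gene was not tested.

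FOLR1 (ENSGALG00000017343) was carried by a single library. Naïve library 7 held 53 counts, which is 26.8 CPM with an interval of 20.1 to 35.0 CPM. The naïve libraries 2, 3, 4 and 6 held 4, 1, 2 and 2 counts, or 0.72, 0.175, 0.532 and 0.384 CPM. Mimic library 2 held 1 count and the other 4 mimic libraries held 0. Naïve library 7 thus had 92.8% of the CPM summed over all 10 libraries, and its Cook's distance in DESeq2, which measures how far a single library moves a gene's fit, was 16.5 against a cutoff of 8.65. By summed counts, 62 in the naïve group against 1 in the mimic group, the ratio of levels was 56.0 with an exact 95% interval of 9.68 to 2250. Without naïve library 7 the counts were 9 against 1, and the ratio was 8.92 with an interval of 1.24 to 391. These ratios pool the libraries and their intervals hold only counting error. The exact 95% intervals of the 4 mimic libraries at 0 reach up to between 0.833 and 0.96 CPM.

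SLC6A13 (ENSGALG00000012985) was carried by a pair of other libraries. Naïve library 3 held 75 counts and naïve library 6 held 68, which is 13.1 CPM (interval 10.3 to 16.4) and 13.0 CPM (interval 10.1 to 16.5). The levels in this pair could not be told apart at this depth. The naïve libraries 2, 4 and 7 held 1, 0 and 2 counts, and the mimic libraries held 0 or 1 count each. The pair had 93.1% of the summed CPM. Over the groups the counts were 146 against 3, a ratio of 43.9 with an interval of 14.7 to 215. Without naïve libraries 3 and 6 they were 3 in 3 naïve libraries against 3 in 5 mimic libraries, and the interval of the ratio of levels, 0.238 to 13.3, is too wide to give a direction. In the RefSeq annotation SLC6A13 lies next to SLC6A12, a related carrier, and no read sharing between the pair was tested here.

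**Figure D1:**
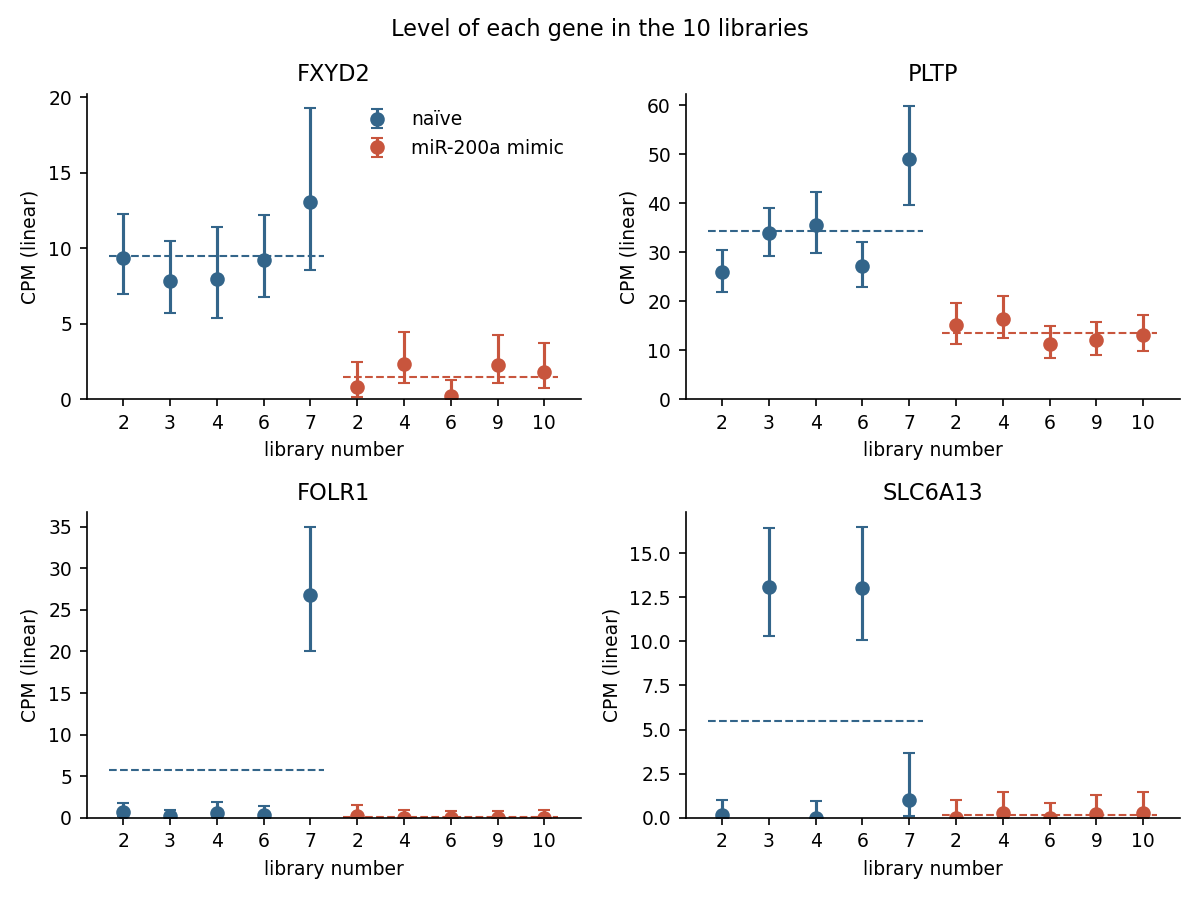
Level of FXYD2, PLTP, FOLR1 and SLC6A13 in CPM on linear axes that start at 0, for naïve libraries (blue) and miR-200a mimic libraries (red) by library number. Bars are exact 95% Poisson intervals and dashed lines are group means. FXYD2 and PLTP are high in all 5 naïve libraries, FOLR1 stands at 26.8 CPM in naïve library 7 alone, and SLC6A13 stands at 13.1 and 13.0 CPM in naïve libraries 3 and 6.

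The question put to these genes was whether they vary together, as the genes of a carried-over piece of border tissue would. FOLR1 and SLC6A13 were not high in the same libraries, though naïve libraries 2, 3, 6 and 7 each held at least 1 count of both. Among the borders of the mammalian brain they are best known from different tissues, so this bears only on a single piece that holds both. Carry-over of the choroid plexus and of the meninges in separate libraries was not tested. Which border tissues hold each gene in the chick was not tested either. In naïve library 7, FOLR1 made up 96.4% of the 55 counts of both genes (exact binomial 95% interval 87.5% to 99.6%). In naïve library 3 it made up 1.32% of 76 counts (interval 0.0333% to 7.11%), and in naïve library 6 it made up 2.86% of 70 counts (interval 0.348% to 9.94%). Their proportion was thus nearly inverted between libraries of the same group, with intervals that did not overlap. The naïve libraries 2 and 4 held few counts of either gene, with 5 and 2 in all.

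FXYD2 and PLTP did not follow SLC6A13. In naïve libraries 3 and 6, where SLC6A13 stood at 13.1 and 13.0 CPM, FXYD2 was at 7.86 and 9.21 CPM and PLTP was at 33.9 and 27.2 CPM. The naïve libraries 2 and 4, with at most 1 count of SLC6A13, held 9.37 and 7.98 CPM of FXYD2 and 25.9 and 35.6 CPM of PLTP. PLTP in libraries 3 and 6 thus lay between its levels in libraries 2 and 4, and so did FXYD2 in library 6, while FXYD2 in library 3 lay just below.

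Both were highest in naïve library 7, the library that held most of the FOLR1 counts. PLTP stood at 49.0 CPM there against 25.9 to 35.6 CPM in the other naïve libraries, and FXYD2 at 13.1 against 7.86 to 9.37 CPM. FOLR1 stood at 26.8 CPM against 0.175 to 0.72 CPM. FXYD2 had 23.9% of its summed CPM in that library and PLTP had 20.5%, where FOLR1 had 92.8%. Such a share depends on the level of a gene in the other libraries and does not measure the excess in CPM. Many other genes were highest in this library too. Of the 8585 genes tested, 1729 (20.1%) had their highest level in naïve library 7. Among the 4310 genes with a higher mean in the naïve group it was 1354 (31.4%). In 43 genes the mimic libraries all lay below the naïve libraries, so that only a naïve library could be highest. Of these, 20 (46.5%) were highest in naïve library 7, and whether this share differs from the others was not tested. The part that the smaller depth of this library has in these shares was not tested.

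**Figure D2:**
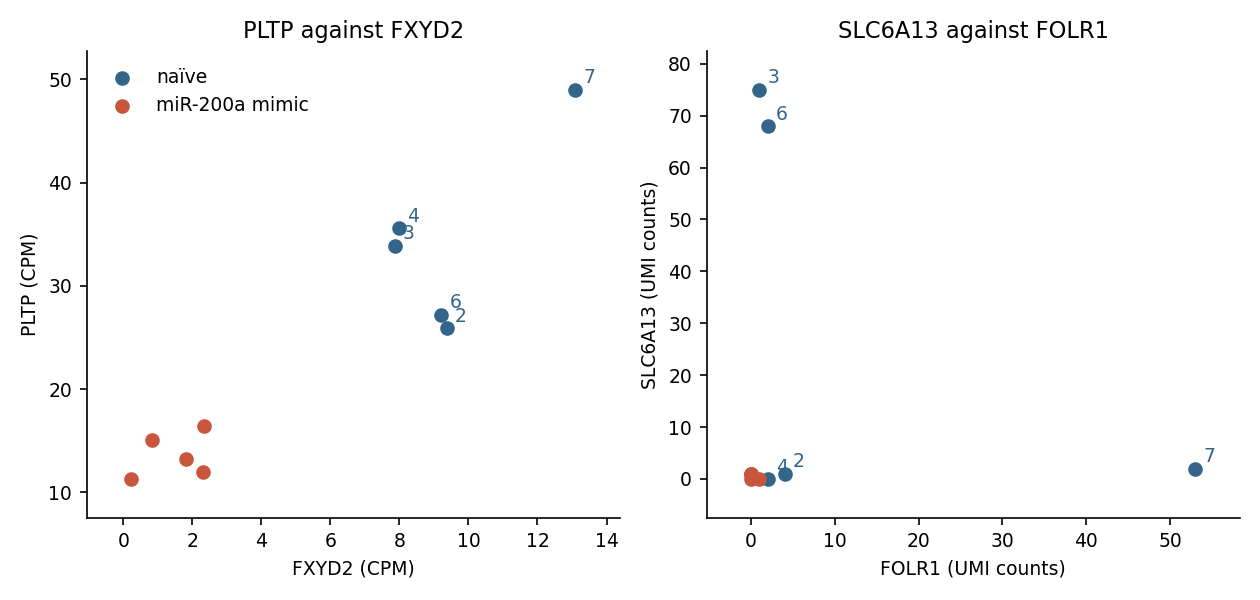
Left, PLTP against FXYD2 in CPM, and right, SLC6A13 against FOLR1 in UMI counts, with 1 point per library and linear axes; naïve libraries (blue) carry their number and mimic libraries are red. On the right, naïve library 7 lies along the FOLR1 axis with 53 and 2 counts, and naïve libraries 3 and 6 lie along the SLC6A13 axis with 75 and 68 counts.

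After the mean of each group was taken off, log2 CPM of FXYD2 and PLTP had a Pearson correlation of 0.368 and a Spearman correlation of 0.236 over the 10 libraries. The libraries share the normalization, and the values are given as a description. With each library left out in turn the Pearson correlation ranged from 0.191 to 0.512, and it was 0.0803 without mimic libraries 4 and 6, the libraries farthest out in FXYD2. By this measure PLTP was the 1066th of the 8584 other genes in likeness to FXYD2. The median of all correlations with FXYD2 was −0.0238 and the 95th percentile was 0.527. In likeness to PLTP, FXYD2 was the 2152nd, with a median of −0.00827 and a 95th percentile of 0.697 over all correlations with PLTP. The mimic values of FXYD2 rest on 1 to 10 counts each, which limits what these correlations can show.

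PLTP and FOLR1 had a correlation of 0.706, the highest of the 6 pairs. FOLR1 held at most 4 counts in any library but naïve library 7, so the correlations with FOLR1 rest on that library, and without it they were −0.0236 for PLTP and −0.127 for FXYD2, which says nothing on how the genes vary elsewhere. With it, FXYD2 and FOLR1 had 0.26. FXYD2 and SLC6A13 had 0.0686, PLTP and SLC6A13 had −0.133, and FOLR1 and SLC6A13 had −0.294. Each is over 10 libraries after the group means were taken off.

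FOLR1 and SLC6A13 were scarce in naïve libraries 2 and 4. With only naïve libraries 2 and 4 set beside the 5 mimic libraries, an alternative chosen after seeing the data, the log2 fold change was −2.53 for FXYD2 and −1.20 for PLTP. By summed counts this is 82 against 30 for FXYD2, a ratio of 5.89 with an interval of 3.83 to 9.27, and 278 against 270 for PLTP, a ratio of 2.22 with an interval of 1.87 to 2.63. These intervals hold counting error only, and since all naïve libraries lie above all mimic libraries in both genes, the direction was fixed by the choice of genes. The ratios over all 5 naïve libraries were 6.05 (interval 4.11 to 9.20) and 2.38 (interval 2.06 to 2.74). With 1 library left out at a time the log2 fold change of FXYD2 lay between −2.84 and −2.32, and that of PLTP between −1.41 and −1.17. FXYD2 was nearest to 0 without mimic library 6 and PLTP without naïve library 7.

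**Figure D3:**
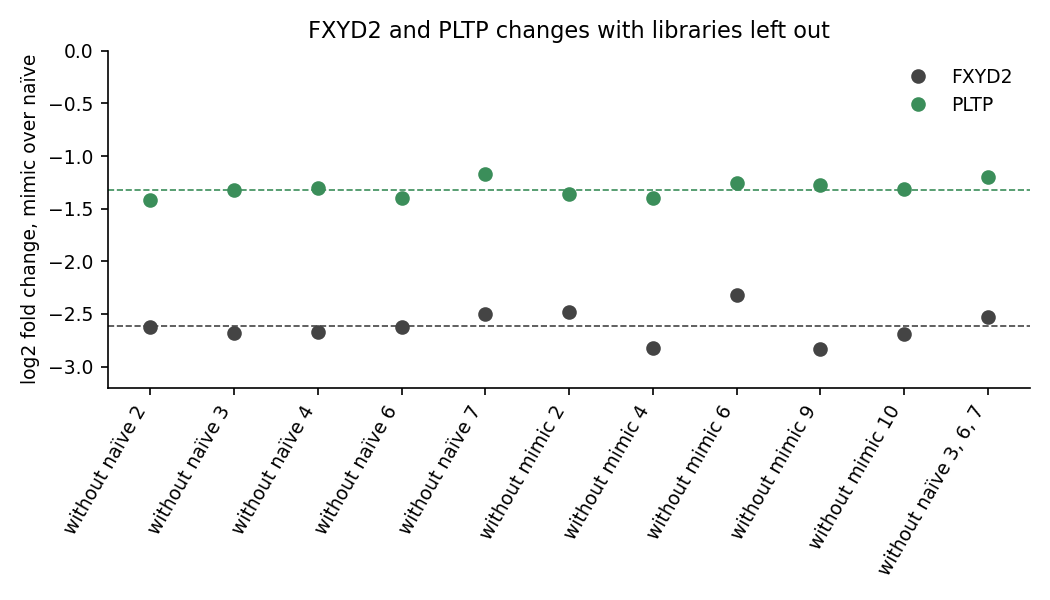
Log2 fold change of FXYD2 and PLTP, mimic over naïve, fitted by edgeR with 1 library left out at a time and with naïve libraries 3, 6 and 7 all left out. Dashed lines are the values with all 10 libraries, −2.62 and −1.32, and each point lies within 0.644 (FXYD2) and 0.297 (PLTP) of its line, the pooled SD of log2 CPM within the groups.

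By summed counts, FXYD2 and PLTP were not lower in the same proportion. FXYD2 made up 22% of the 912 counts of both genes in the naïve group (exact binomial 95% interval 19.4% to 24.9%) and 10% of 300 counts in the mimic group (interval 6.85% to 14.0%). By library it ranged from 18.3% to 26.5% in naïve chicks and from 1.96% to 16.1% after the mimic, so that these values did not overlap. Most of the intervals did overlap. Those of mimic libraries 4 (5.88% to 22.4%), 9 (8.02% to 27.7%) and 10 (4.99% to 23.3%) overlapped the interval of every naïve library. That of mimic library 2, 1.1% to 14.6%, overlapped those of naïve libraries 3, 4 and 7. Only that of mimic library 6, 0.0496% to 10.4%, lay below the intervals of all naïve libraries. All these intervals hold counting error only. Among the naïve libraries the intervals all overlapped. Both genes belong to the contrast that chose them, so this too is a description. In bulk RNA, fewer cells of a type and less RNA per cell cannot be told apart.

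**Figure D4:**
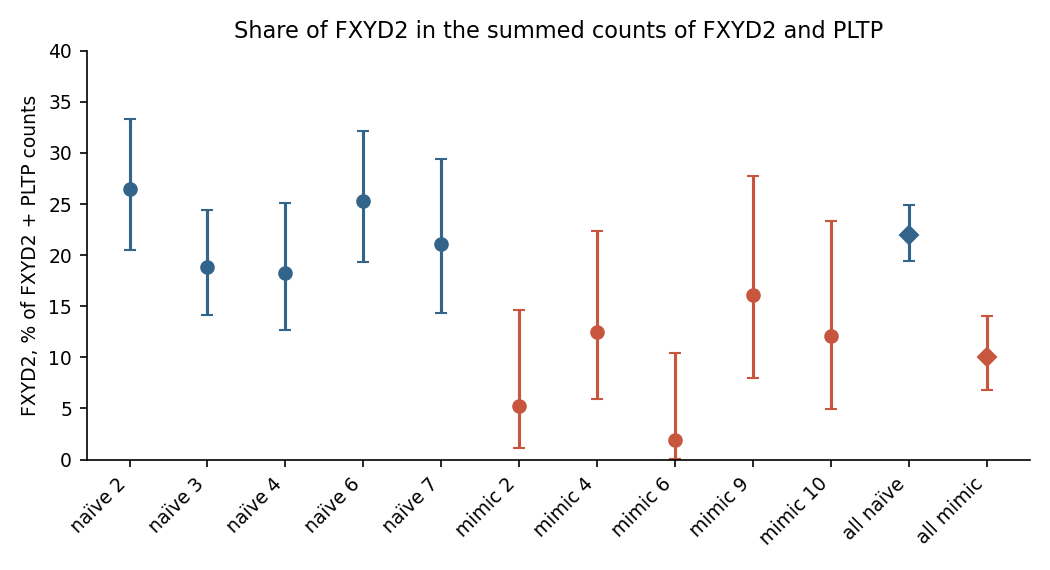
FXYD2 as a percentage of the summed UMI counts of FXYD2 and PLTP, for each library (circles) and for each group in all (diamonds), naïve in blue and mimic in red. Bars are exact 95% binomial intervals; the naïve libraries lie between 18.3% and 26.5% and the mimic libraries between 1.96% and 16.1%.

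How far a gene rests on few libraries was counted over all genes. Among the 11146 genes with 20 or more counts in all, the highest library held a median of 14.5% of the summed CPM. It held 92.8% for FOLR1, 46.6% for SLC6A13, 23.9% for FXYD2 and 20.5% for PLTP. All of these shares are raised by the low mimic levels for which the genes were chosen, so no rank is given. For the same reason the counts of genes that follow are a description and do not show that the members are unusual. In 10 genes (0.0897%) a single library held 80% or more, and 4 of the 10, FOLR1 among them, did so in naïve library 7. In 7 genes (0.0628%) a pair of libraries held 80% or more with at least 20% in each, and SLC6A13 was the only such gene in naïve libraries 3 and 6. The spread fitted to each gene alone, as a biological coefficient of variation, was 179% for FOLR1 and 158% for SLC6A13, against 9.13% for FXYD2 and 18.2% for PLTP.

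**Figure D5:**
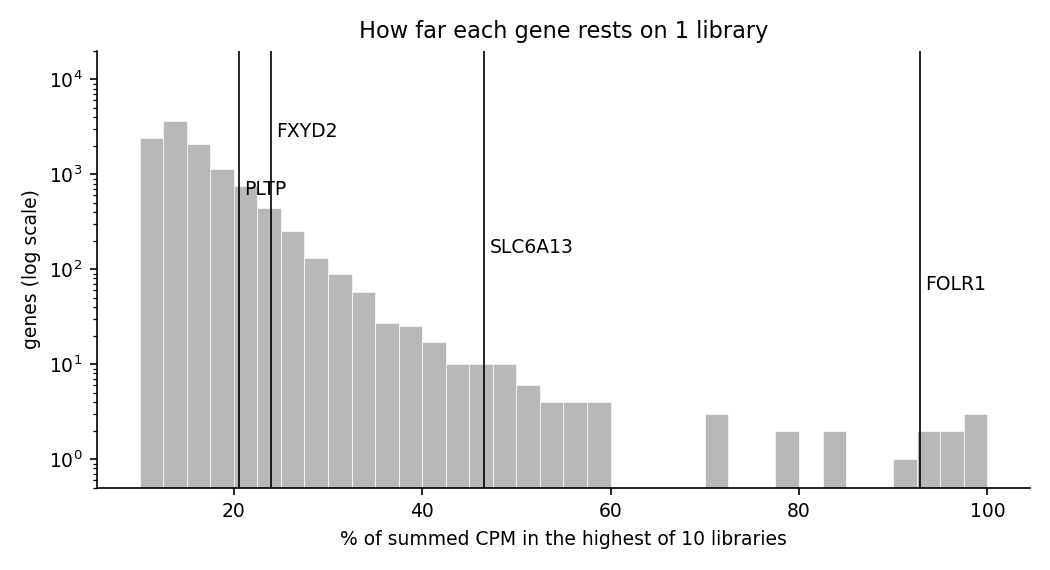
Number of genes (log scale) by the percentage of their summed CPM that lies in the highest of the 10 libraries, in bins over 11146 genes with 20 or more counts. Vertical lines mark PLTP at 20.5%, FXYD2 at 23.9%, SLC6A13 at 46.6% and FOLR1 at 92.8%.

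The 3 genes that shared the library of FOLR1 have no symbol in the sources used here. The strongest, ENSGALG00000012908, had 100 counts in naïve library 7 and at most 4 in any other library, and ENSGALG00000015143 had 23 counts there and at most 2 elsewhere. The third had 23 counts there, and the highest other naïve library held 4. Each held at most 4 counts over all mimic libraries. ENSGALG00000012908 stood at 50.5 CPM in naïve library 7, above the 26.8 CPM of FOLR1.

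The named genes most like FXYD2 and PLTP in their variation within groups were of several kinds. Genes had a symbol only through the study's supplementary tables, so the kinds found depend on which genes those name. CSPG5, TREM2 and GNG11, given below, are in the study's list of lower genes, and the study names RPL30 among its upregulated genes. Others given below may also have been selected on these libraries. Over 119 named genes, FXYD2 was nearest to CSPG5, a neural proteoglycan (r = 0.696), SCG3, a protein of secretory granules (r = 0.664), the keratin KRT14 (r = 0.599), RSRP1 (r = 0.596) and TREM2, a lipid receptor of microglia (r = 0.523). PLTP was nearest to ARPC5, a subunit of the actin-branching Arp2/3 complex (r = 0.782), PLEKHF2 (r = 0.758), the ribosomal protein gene RPL30 (r = 0.753), GNG11, a G protein subunit (r = 0.733), and KRT14 (r = 0.724). Each r is over 10 libraries after group means were taken off. Genes without a symbol came nearer, since CSPG5 ranked 120th for FXYD2 and ARPC5 ranked 153rd for PLTP among 8584 genes.

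Lists of marker genes could hardly be used. The counts carry gene identifiers only, and a symbol was at hand for 137 of them, from the study's supplementary tables. None of 25 listed choroid plexus symbols and none of 36 listed symbols of the meninges and border fibroblasts could be matched, so the label of border tissue was not checked against other markers of it. In all, 6 of 275 listed symbols were matched, and none of the 6 genes was called. No member of the lists for the sodium pump, folate uptake or SLC6 carriers was matched.

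Of the brain endothelium list, 4 of 19 genes were matched, none was called, and their log2 fold changes had both signs. GNG11 (ENSGALG00000029899) resembled PLTP in being highest in naïve library 7, at 24.8 CPM against 5.76 to 10.1 CPM in the rest of the naïve group. On the log2 scale GNG11 differed by −1.39 (standard error 0.42), with an edgeR adjusted p of 0.428. RAMP2, a receptor-modifying protein, had −0.53 and SLC16A1, a lactate carrier, had 0.72 (edgeR adjusted p = 0.367 and 0.316). The study selected GNG11, RAMP2 and SLC16A1 on these libraries.

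A single gene of the list for neurons was matched, and 1 neuronal marker cannot show where the tissue was cut or how much border tissue it held. RBFOX3, which encodes the neuronal nuclear protein NeuN, had a naïve mean of 115 ± 19.7 CPM (SD, n = 5) and a mimic mean of 84.2 ± 23.3 CPM (SD, n = 5), with overlapping groups (edgeR adjusted p = 0.612). LPCAT3, which remodels membrane phospholipids and was the matched gene of the list with lipoprotein transfer, had means of 109 ± 13.9 CPM (naïve) and 80.7 ± 7.44 CPM (mimic), both SD with n = 5, and was not called (edgeR adjusted p = 0.320). Its mimic libraries all lay below its naïve libraries, as in 43 of the 8585 genes tested (0.501%). The study selected LPCAT3 on these libraries.

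Just outside the call among lower genes were KRT20 and MSI2. KRT20 (ENSGALG00000019716), a keratin, went from a mean of 14.5 to 6.26 CPM and MSI2 (ENSGALG00000005567), an RNA-binding protein of neural progenitors, from 14.4 to 7.43 CPM. Their adjusted p was 0.177 and 0.184 from edgeR. In both, all 5 mimic libraries lay below all 5 naïve libraries, as in 43 of the 8585 genes tested (0.501%). The study selected KRT20 and MSI2 on these libraries, so their values are a description. Of the 21 named genes in the study's list of lower genes, FOLR1 had the largest share in 1 library. SLC6A13 came next and then GNG11 with 30.3%, and the other 18 lay between 12.9% and 23.9%. Low mimic levels, for which these genes were listed, raise such shares, so the order is a description.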

How the data were processed

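Bulk MARS-seq libraries were compared as 5 naïve against 5 mimic. Per the labels and the study's methods, the authors used cutadapt for trimming, STAR for mapping to the 3′ regions of genes in galGal5 and HTSeq for counting by gene and UMI, then corrected the UMI counts for saturation. Their tool versions: not given in the sources used here. An interval from a corrected count is approximate. The deposited UMI counts were used, while the 10 columns of normalized counts and the sheet of thresholds were not. Groups came from the condition in each column name. The closest libraries of a group differed by 8.53 in chi-square per gene, and none was taken for a copy.

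The analysis used R 4.3.3 and edgeR 4.0.16 (filterByExpr with a minimum count of 10, TMM, robust quasi-likelihood test, Benjamini-Hochberg over 8585 genes), with DESeq2 1.42.0 and limma 3.58.1 as alternatives. For correlations, log2 CPM had a prior count of 2. Intervals came from scipy 1.17.1 at 95%. The genes to name were the members, up to 3 genes of each list by smallest p, the 5 named genes nearest to FXYD2 and to PLTP, the genes concentrated in the libraries of FOLR1 and SLC6A13, and the 2 lower genes nearest to the call on each side. The 3 genes without a symbol that shared the library of FOLR1 fall outside that rule and were chosen after their values were seen. The members, lists and rules were chosen with earlier results of these data known. P-values set the difference between the groups against the spread between these libraries within groups, which may be technical. No sequence was used here.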

Additional observations from a re-analysis of the deposited data

Results flagged for a closer look

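In 8 groups of 5 values, the 4 genes by naïve and mimic libraries, 3 had an extreme library by Dixon's criterion. Chance meets it in about 1 in 20 groups where values are normally distributed. Levels from low counts need not be, and the genes were chosen on these libraries, so that rate is no yardstick here. FOLR1 in naïve library 7, at 26.8 CPM, had a gap to the next library of 0.979 of the range of the naïve group. FXYD2 in the same library, at 13.1 CPM, had 0.715, just above the critical value of 0.71, and 0.705 in CPM without the TMM factors. FOLR1 in mimic library 2, at 0.279 CPM, rests on 1 count beside 4 libraries at 0, where the criterion is met by construction and says nothing.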

How the results depend on the processing

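No paired analysis was possible because neither the labels nor the study's methods tie a naïve chick to a mimic chick, and the column numbers are not those of the titles. The log2 fold changes of FXYD2 and PLTP kept their sign and moved by less than the SD within groups under DESeq2, limma-voom, other factors, other filters and every library left out. The FOLR1 log2 fold change, fitted without a filter, was −5.78 and lay between −7.22 and −2.60 with a library left out, nearest to 0 without naïve library 7. That of SLC6A13 was −5.03 and lay between −5.35 and −4.43. Such fitted values depend on the prior count and are no bounds. For the numbers of called genes, DESeq2 was run only on the 8585 genes that passed the filter, without FOLR1 and SLC6A13. The study's methods name no such filter before the fit. The number of genes called lower was 2 by edgeR, 5 by DESeq2 at the study's and at default settings, and 2 with any library left out. It was 0 with naïve libraries 3 and 6, or 3, 6 and 7, left out, and so was the number called higher, with fewer libraries in the fit; both settings were chosen after seeing the data. The number called higher was 12 by edgeR, 36 by DESeq2 at both settings, 7 with a minimum count of 30 and 6 to 18 with a library left out. The correlation of FXYD2 and PLTP lay between 0.352 and 0.399 with other prior counts or RLE factors. The genes concentrated in naïve library 7 were 7 at a share of 70% and 2 at 50 counts or more, and the cause was not tested. SLC6A13 remained the only gene of its pattern at every share and count minimum tried, a pattern that its low mimic counts, for which it was chosen, help it meet.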
